A study of Saccharomyces cerevisiae and Schizosaccharomyces pombe with 10 samples.

Results

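The snoRNA genes of fission yeast (Schizosaccharomyces pombe) are described here, except for the U3 genes snu3 and snu32, the U17 gene snR30, and the genes snoR61, snR191, snoR39b, snoR47, snoU24b and snoU24. Members were all genes with the biotype snoRNA in the PomBase annotation distributed by RefSeq, less these names, which left 57 of 66 genes. Of the 57, 19 are annotated as box H/ACA RNAs, 1 (snoZ30) as a C/D RNA and 7 as longer snoRNA primary transcripts, while the product names of the other 30 give no class. The series holds 10 samples of long-read nascent RNA sequencing, of which 1 is from S. pombe. That sample came from wild-type h- cells of strain L972, grown exponentially in YES, a rich glucose medium, at 30 °C. Nascent RNA was isolated, an adaptor was ligated to its 3' ends, and cDNA was sequenced on a Pacific Biosciences instrument, so each read gives both ends of 1 cDNA molecule. The other 9 samples, all from Saccharomyces cerevisiae, were not analysed here. With 1 library there was no replicate to compare. All intervals are therefore 95% counting intervals (exact Poisson for counts, Wilson for shares), they cover counting error only, and no test between conditions was possible. They treat reads as independent, although PCR copies were not removed, so they may be too narrow.

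Small nucleolar RNAs guide the chemical modification of rRNA and of some snRNAs. Box C/D RNAs hold the conserved boxes C and D close to their ends and direct methylation of ribose by the fibrillarin complex, and box H/ACA RNAs end shortly after an ACA triplet and direct pseudouridylation by the Cbf5 complex. Many are cut out of longer precursors, either from introns or from transcripts that carry several snoRNAs in a row. Exonucleases then trim the RNA up to the edge of its protein complex.

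The RNAs below carry the results that follow. Each is the stretch from the commonest 5' read end to the commonest 3' read end on the RNA strand, read from the RefSeq assembly ASM294v3 and written as DNA. Capitals mark the letters CTGA of box D within the last 15 nt, the letters TGATGA of box C within the first 15 nt, or an ACA that lies 3 or 4 nt before the end. The first set comprises the snoRNAs of the 5-gene cluster annotated as the primary transcript snoZ, in their order on chromosome I (plus strand, 526726 to 527711).
snoZ8: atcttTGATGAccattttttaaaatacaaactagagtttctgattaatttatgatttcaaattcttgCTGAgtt
snoZ7: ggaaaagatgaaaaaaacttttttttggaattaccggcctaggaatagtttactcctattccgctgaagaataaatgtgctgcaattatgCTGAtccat
snoZ5: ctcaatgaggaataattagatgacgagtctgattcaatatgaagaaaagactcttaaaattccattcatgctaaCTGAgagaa
snoZ4: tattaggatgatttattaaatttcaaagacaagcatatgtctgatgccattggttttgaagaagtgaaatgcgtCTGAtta
snoZ3: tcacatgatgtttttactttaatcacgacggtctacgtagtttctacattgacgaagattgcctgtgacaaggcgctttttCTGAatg
The second set, from 1200168 to 1200721 on the plus strand of chromosome I, is held by the primary transcript SPNCRNA.723. They are printed in the order in which they lie on it.
snR41: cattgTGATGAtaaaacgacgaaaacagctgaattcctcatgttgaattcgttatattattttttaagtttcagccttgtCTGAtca
snR70: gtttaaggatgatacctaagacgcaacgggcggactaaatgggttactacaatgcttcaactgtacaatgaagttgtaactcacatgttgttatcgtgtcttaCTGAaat
snR51b: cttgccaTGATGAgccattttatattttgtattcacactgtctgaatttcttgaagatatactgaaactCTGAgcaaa
The third set gives abundant RNAs transcribed from other loci. The gene snR88 (I, 1316808 to 1316891) had a second, longer form, snoU14 (II, 1308637 to 1308744) had a pair of 3' ends, snoR56 (I, minus strand, 5148473 to 5148555) had among the sharpest ends, and snoR02 (I, minus strand, 2627985 to 2628072) lacked CTGA at its end.
snR88: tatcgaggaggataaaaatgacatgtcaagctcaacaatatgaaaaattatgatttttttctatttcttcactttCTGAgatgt
snoU14: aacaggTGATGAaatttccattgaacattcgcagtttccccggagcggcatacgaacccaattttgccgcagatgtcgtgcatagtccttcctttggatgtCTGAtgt
snoR56: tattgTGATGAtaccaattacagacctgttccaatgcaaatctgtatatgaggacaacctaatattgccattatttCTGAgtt
snoR02: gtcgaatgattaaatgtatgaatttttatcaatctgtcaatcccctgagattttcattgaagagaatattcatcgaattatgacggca
The fourth set shows the most abundant RNA, sno12 (III, 583418 to 583606), and RNAs whose commonest ends lay far from an annotated end and were shared by many reads, snR98 (I, minus strand, 2330435 to 2330607), SPNCRNA.498 (II, minus strand, 1078060 to 1078263) and snR90 (I, minus strand, 4937237 to 4937395).
sno12: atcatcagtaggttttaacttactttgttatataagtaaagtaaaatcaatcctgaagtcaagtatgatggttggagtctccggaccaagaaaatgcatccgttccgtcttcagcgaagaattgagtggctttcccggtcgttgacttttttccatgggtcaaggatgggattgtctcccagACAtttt
snR98: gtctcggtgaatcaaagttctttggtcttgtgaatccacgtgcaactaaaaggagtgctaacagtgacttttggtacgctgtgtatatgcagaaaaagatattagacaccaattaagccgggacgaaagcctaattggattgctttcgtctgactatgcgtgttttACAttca
SPNCRNA.498: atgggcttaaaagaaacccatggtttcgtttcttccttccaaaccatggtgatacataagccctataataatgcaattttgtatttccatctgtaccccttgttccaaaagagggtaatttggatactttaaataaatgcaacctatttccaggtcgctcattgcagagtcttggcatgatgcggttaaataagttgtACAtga
snR90: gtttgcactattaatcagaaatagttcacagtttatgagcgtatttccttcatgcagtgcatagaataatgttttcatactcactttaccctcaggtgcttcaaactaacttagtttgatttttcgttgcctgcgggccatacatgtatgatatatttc

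The members held 6884 of the 16126 S. pombe alignments (42.7%, 41.9 to 43.5), and 46 of the 57 genes had at least 1 read. A same-strand read was given to a gene where the overlap was at least 50% of the read or of the gene. Among several such genes the one with the highest ratio of shared to joint length took it, so that a read of a snoRNA inside a longer annotated transcript went to the snoRNA. The share was 42.0% in the earlier movies (recordings of the instrument) and 43.3% in the later ones, all of the same library. The removed U3 and U17 genes held 3221 reads (19.97%) and the 6 genes snR191, snoR39b, snoR47, snoU24b, snoU24 and snR48, the last of biotype snRNA, held 892 (5.53%). Reads were not divided by gene length, because each read stands for 1 cDNA molecule whatever its length. PCR copies were not removed, so reads are not counts of separate RNA molecules. Molecules of different length may be recovered with different efficiency, which was not tested.

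Abundance was uneven. The H/ACA RNA sno12 led with 782 reads (728 to 839), 353 in the earlier and 429 in the later movies. It was followed by snoZ7 with 702 reads (651 to 756), of the snoZ cluster. The intervals of these leading RNAs overlapped each other, and both lay above those of all other members. PCR copies count as reads in these intervals, so the order is one of reads and not of separate molecules. The next was snR88 with 398 reads (360 to 439). It was close to snoU14, with 376 reads (339 to 416), the U14 RNA that pairs with 18S rRNA and is needed for early pre-rRNA cleavage in S. cerevisiae. After these came the H/ACA RNA snR90 with 349 reads, snR41 with 336, snoR02 with 276, snoR56 with 275, and the H/ACA RNAs sno20 with 270 and snR98 with 239. Neighbours in this order from snR88 down to snR98 overlapped in their counting intervals. These 10 genes held 58.2% of the members' reads. In all, 24 members had at least 100 reads and 29 had at least 50, while 17 had between 1 and 49. The genes with 50 to 99 reads were SPNCRNA.498 (92 reads), snoZ4 (87), snr62 (83), snR95 (55) and snR93 (51), and those just below were snR91 (39), snoR54 (35), snoR39a (33), snoZ16 (27) and snoU18 (25).

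**Figure D1:**
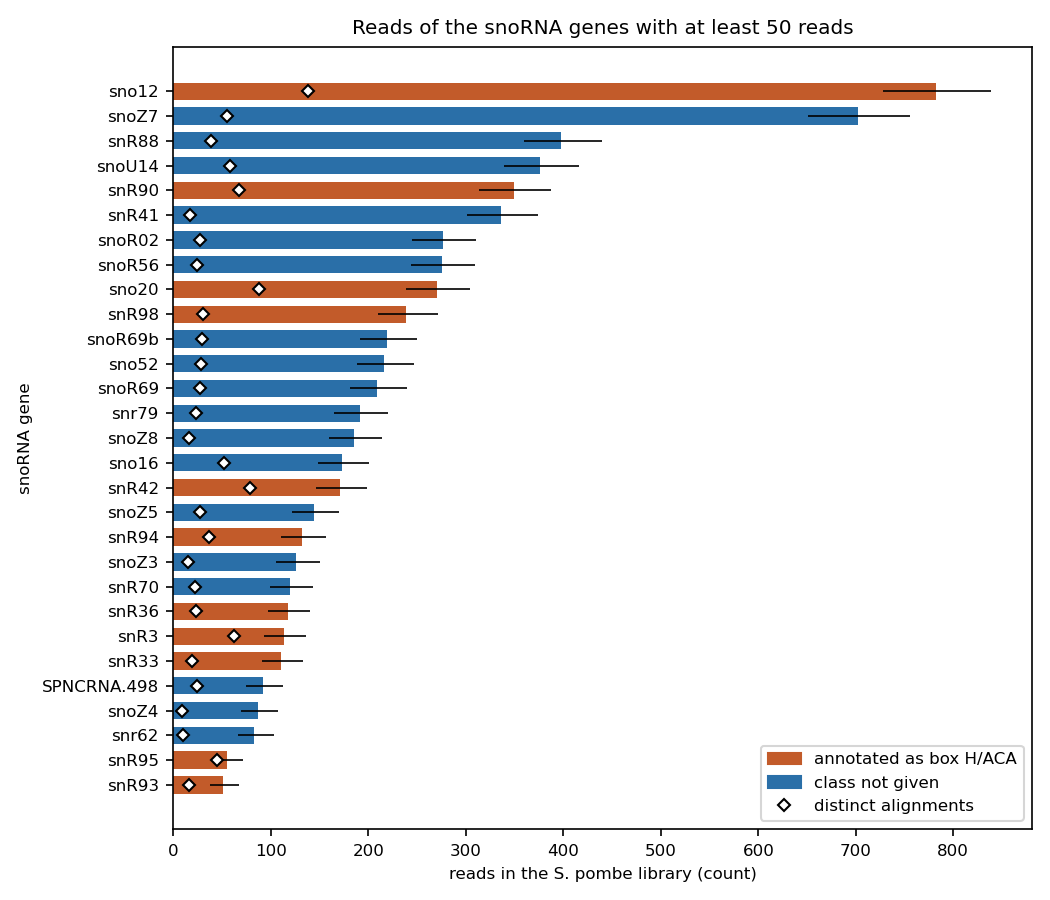
Reads (bars, count, with exact Poisson intervals) and distinct alignments (diamonds) of the 29 snoRNA genes with at least 50 reads. sno12 (782) and snoZ7 (702) stand above the rest, and the diamonds lie far below the bars in nearly all genes.

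Many reads were identical alignments. The 782 reads of sno12 were 138 distinct alignments, the 702 of snoZ7 were 55 and the 336 of snR41 were 17. By distinct alignments snoZ7 lay below sno20 (88), snR42 (78), snR90 (67), snR3 (62) and snoU14 (58). Over all members 1261 distinct alignments remained, 20.2% of those in the library. Reads of an RNA with fixed ends have the same coordinates whether or not they are PCR copies. Coordinates alone, as used here, thus cannot tell copies from separate molecules for these RNAs. The count of distinct alignments is a lower value for RNAs with sharp ends: snR95, with scattered 5' ends, kept 45 distinct alignments out of 55 reads.

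A group of members was not seen. The H/ACA genes snR10, snR46, snR96 and snR97, the gene snoR54b, and SPNCRNA.1709, annotated as a guide specific for the U2 snRNA, had 0 reads, which allows up to 3 reads or 0.0186% of the library. In S. cerevisiae the RNA of the same name, snR10, has a part in pre-rRNA processing. Their annotated lengths run from 96 nt for snoR54b to 211 nt for snR96, and the longest read of the file had 356 nt. Whether length affected their recovery was not tested. The H/ACA RNA snR5 had 1 read and snR92 had 9. The other 5 members without a read are longer primary transcripts, described below.

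In the members with at least 50 reads, most reads ended at or next to the gene's commonest 3' base, and 58.9% ended exactly on it. Over the 29 genes with at least 50 reads, 5623 of 6597 reads (85.2%, 84.4 to 86.1) had their 3' end no more than 1 nt from the base most used in that gene, and the median over genes was 90.7%. The share was above 80% in 25 genes. It was highest in snR41, where 324 of 336 reads ended there (96.4%), and in snoR56, with 264 of 275 (96.0%), and it was 95.2% in snr62. The commonest ends were taken from the same reads, so these shares describe the spread and are no test. The lowest values were 54.0% in snoU14, 71.5% in snoZ5, 72.6% in snR3 and 73.7% in snoZ7. In each of these RNAs a set of reads ended 2 nt from the commonest base. In snoU14, 172 reads ended at the commonest base and 146 (38.8%, 34.0 to 43.9) ended 2 nt further on, 59 of them in the earlier and 87 in the later movies. In snoZ7, 361 reads ended at the commonest base, 148 ended 1 nt before it and 133 ended 2 nt before it (18.95%). In snoZ5 the ends fell off over adjacent bases, with 64 reads at the commonest base, 38 at 1 nt and 22 at 2 nt before it. In snR3, 24 of 113 reads ended 2 nt before the commonest end. In some genes a pair of adjacent bases was used about equally: snR98 had 113 and 106 reads at neighbouring bases, sno16 had 79 and 77, and snR36 had 56 and 51. In others the ends spread over 3 or more adjacent bases, as in sno12, with 416 reads at the commonest base, 255 at 1 nt and 52 at 2 nt before it, and in snR88, with 224, 77 and 30.

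**Figure D2:**
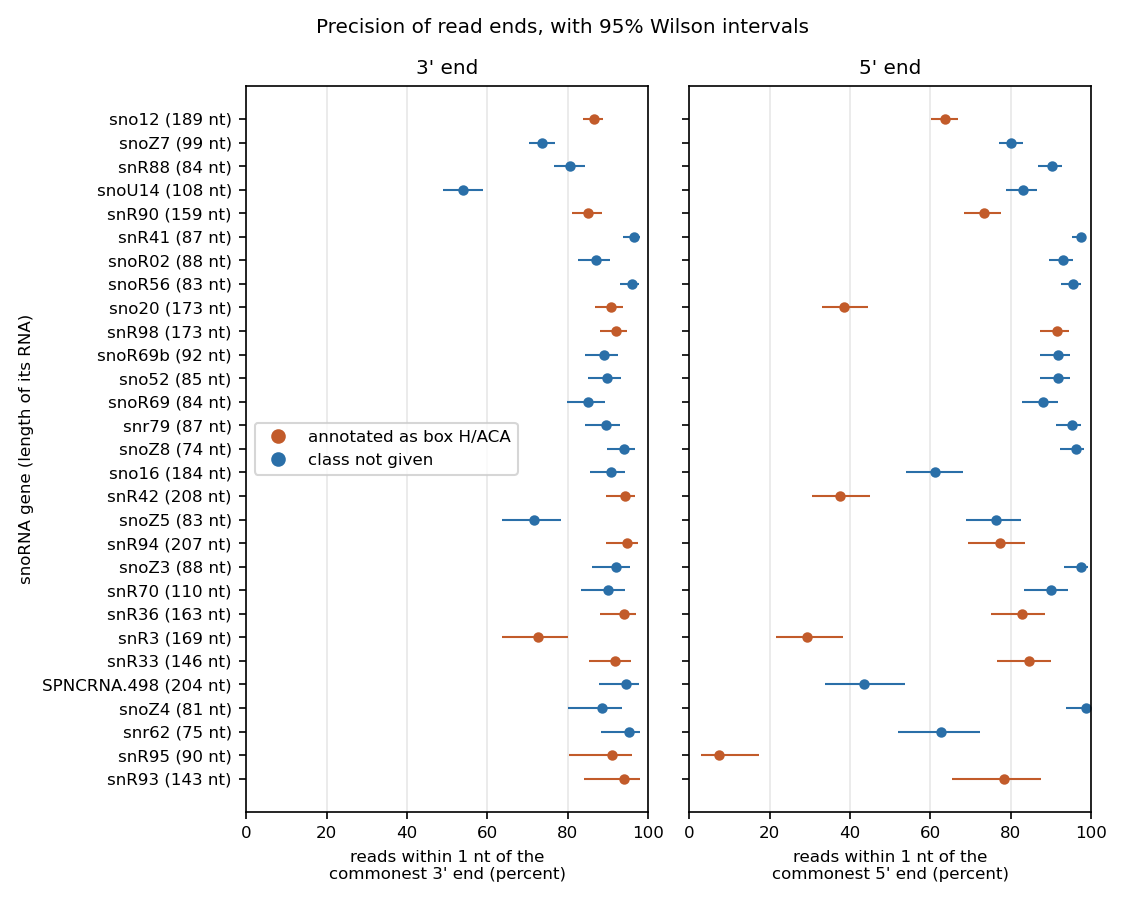
Percent of reads within 1 nt of the commonest 3' end (left) and 5' end (right) for the 29 genes, with Wilson intervals; the length from commonest 5' to commonest 3' end stands beside each name. The 3' shares cluster between 80% and 97% except for snoU14, snoZ5, snR3 and snoZ7, while the 5' shares run from 7.27% (snR95) to 98.9% (snoZ4).

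The 5' ends were sharp in most short RNAs and less so in the long ones. Over the same 29 genes the 5' end of 5160 reads (78.2%, 77.2 to 79.2) was no more than 1 nt from the most used base, and the median over genes was 83.0%. The 3' share was higher than the 5' share in 15 of the 29. The 18 genes without an H/ACA annotation, with a median length of 87 nt, had 86.7% of 4208 reads at the commonest 5' end. The 11 annotated H/ACA RNAs, with a median length of 169 nt, had 63.2% of 2389. At the 3' end the order was the other way, 83.4% and 88.5%, but the medians over genes were close, 89.7% and 91.8%. The lower pooled share rests largely on snoZ7 (517 of 702 reads) and snoU14 (203 of 376). Over the 29 genes Spearman's rho between RNA length and 5' share was -0.60, and without snR95 -0.64 over 28 genes. Between length and 3' share it was 0.10. All points share 1 library, and class and length run together, so they cannot be told apart here.

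**Figure D3:**
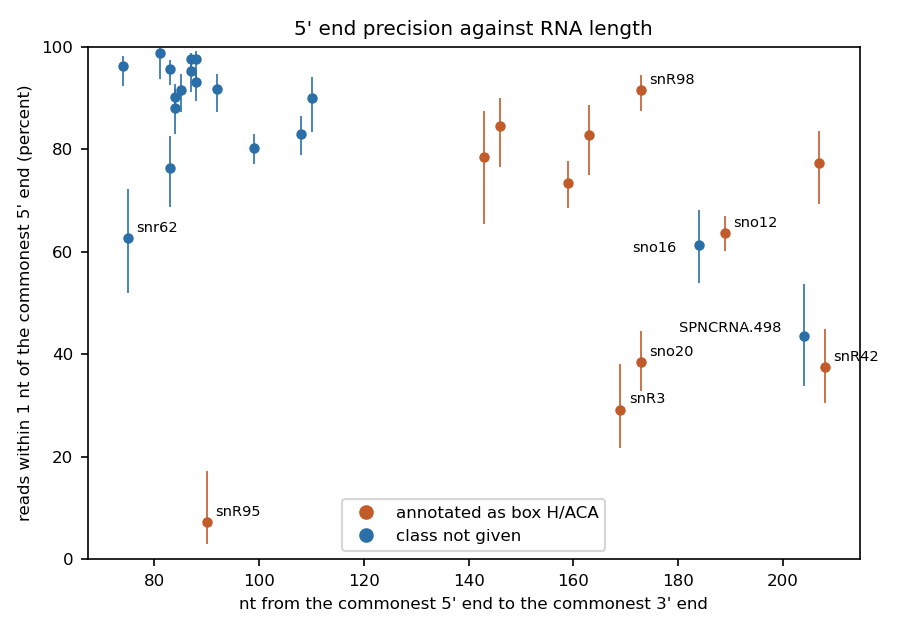
Percent of reads within 1 nt of the commonest 5' end against the distance from commonest 5' to commonest 3' end, for 29 genes with Wilson intervals. RNAs of 74 to 110 nt lie mostly above 80%; those of 143 to 208 nt run from 29.2% (snR3) to 91.6% (snR98). The point at 90 nt and 7.27% is snR95, whose commonest 5' end rests on 4 reads.

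Reads that began inside an RNA mostly ran to the same 3' end. In the 29 genes 795 reads (12.1%, 11.3 to 12.9) began at least 10 nt inside the commonest 5' end, and 703 of these (88.4%) had the usual 3' end to within 1 nt. Some inner starts recurred. In sno12, 95 of 782 reads (12.1%) began 71 nt inside, 40 in the earlier and 55 in the later movies, against 488 at the commonest 5' end. In snr62, 26 of 83 reads (31.3%, 22.4 to 41.9) began 12 nt inside. In snR42, 15 of 171 began 62 nt inside, and in sno20, 24 of 270 began 11 nt and 17 began 40 nt inside. In snR95 no base was preferred: its 55 reads had 37 different 5' ends, from 3 to 142 nt inside the annotated start with a median of 57 nt, yet 50 of them (90.9%) ended within 1 nt of 1 base. Whether inner starts are ends of cellular RNA or stops of reverse transcription was not tested.

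The annotated 3' end matched to the base in 5 of the 29 genes, within 2 nt in 23 and within 6 nt in 27. The commonest 5' end lay within 2 nt of the annotated start in 24. The 2 genes that were 10 nt or more off at the 3' end were snR90 and SPNCRNA.498. The H/ACA gene snR90 (I, 4936907 to 4937394) is annotated over 488 nt with an intron of 186 nt. Its commonest RNA was 159 nt long and ended 330 nt before the annotated end and 38 nt before the intron (4937014 to 4937199). Of its 349 reads, 297 ended within 1 nt of that base, 7 ran into or past the annotated intron, and 1 read lacked the intron. SPNCRNA.498 (II, 1078083 to 1078182), called a candidate snoRNA, lies in an intron of ipa1 (1077967 to 1078447). Its annotated span is 100 nt, and its commonest RNA was 204 nt, beginning 81 nt before and ending 23 nt after it. Of its 92 reads, 87 (94.6%) shared the 3' end, which left 93 nt to the 3' splice site of the host intron. Its 5' ends were in a pair of groups, 36 reads at the commonest base and 28 reads 5 nt further in. In snR98 the 5' side departed: 178 of 239 reads began 40 nt inside the annotated start, and 4 began at it.

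In most genes without an H/ACA annotation the commonest 3' end lay 3 or 5 nt after CTGA. Motifs were searched on the RNA strand of the stretch between the commonest ends. Among the 18 genes with at least 50 reads and no H/ACA annotation, 15 held CTGA within the last 15 nt, with exactly 3 nt after it in 12 and exactly 5 nt in 3 (snoZ7, snR88 and snoZ5). CTGA stood in that window in 158 of 5113 annotated ends of nuclear protein-coding genes (3.09%), and in 7 of them (0.137%) with exactly 3 nt after it. The annotated H/ACA RNAs had it in 0 of 11. All 11 members with 1 to 49 reads and neither an H/ACA annotation nor a primary transcript held it as well, 6 with 3 nt and 5 with 5 nt after it. Among the annotated H/ACA genes with 1 to 49 reads, snR92 (9 reads) also held it, with 5 nt after it, besides an ACA near its end, while snR91, snR101 and snR5 did not hold it. TGATGA was present within the first 15 nt in 8 of the 15 CTGA genes, in 7 of them with 5 nt before it, against 7 of 5113 protein-coding starts (0.137%). Taken over the reads of these 15 genes, 1761 of 3667 (48.02%) ended 3 nt after CTGA, 808 (22.03%) 5 nt, 489 (13.3%) 2 nt and 324 (8.84%) 4 nt after it. Most reads at 5 nt were of snoZ7 (361), snR88 (224), snoU14 (146) and snoZ5 (64). The read counts largely restate the genes' commonest ends, which were taken from the same reads. Reads that ended before the last base of CTGA numbered 54 (1.47%). The second 3' end of snoU14, which added 2 nt, lay 5 nt after CTGA, so this RNA used both distances.

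**Figure D4:**
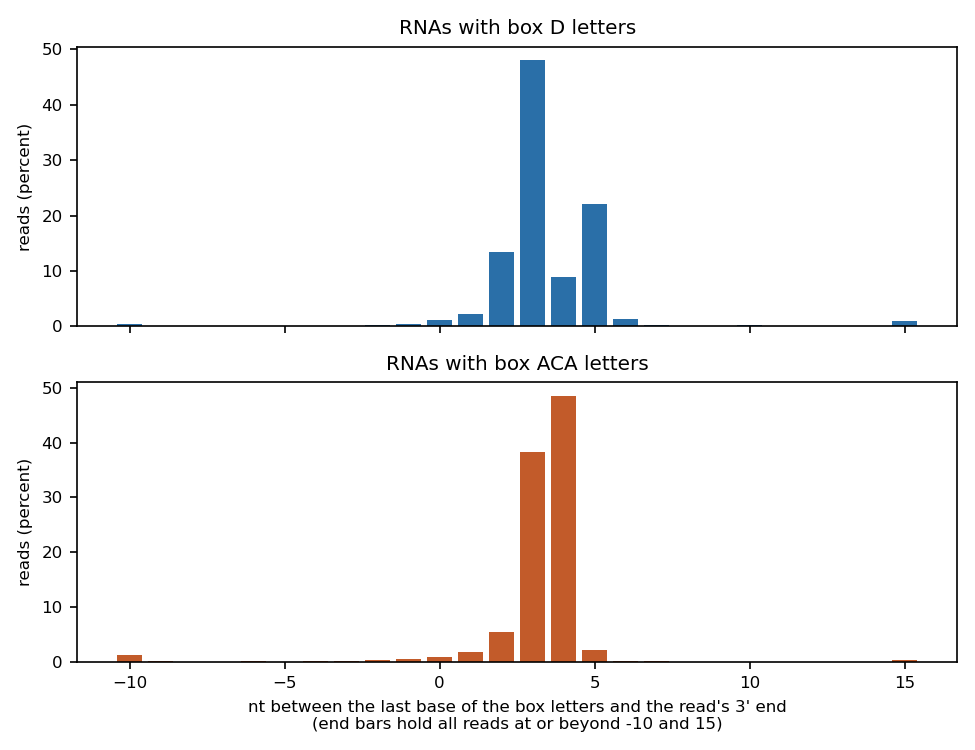
Distance from the last base of the box letters to the read's 3' end, as percent of reads, for the 15 genes with CTGA (top, 3667 reads) and the 9 with ACA 3 or 4 nt before the commonest end (bottom, 1749 reads). Ends after CTGA peak at 3 and 5 nt. The peak at 5 nt comes mostly from snoZ7, snR88, snoU14 and snoZ5. The genes' commonest ends and these peaks come from the same reads. The lower peak, at 3 and 4 nt, follows from how those genes were picked.

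Of the 11 annotated H/ACA RNAs with at least 50 reads, 3 (snR94, snR36 and snR93) had exactly 3 nt after the last ACA. A further 5 (sno12, snR98, snR42, snR33 and snR95) had 4 nt, a distance added after the data were seen, which makes 8 of 11. ACA stood at these distances in 2.03% and 2.01% of the 5113 protein-coding ends. In snR3 the last such triplet had 6 nt after it, and snR90 and sno20 had none in the last 15 nt. SPNCRNA.498, which has no class in the annotation, ended with exactly 3 nt after ACA. Over the reads of these 9 genes, 850 of 1749 (48.6%) ended 4 nt and 670 (38.3%) ended 3 nt after ACA. The genes were picked because their commonest end lies at 3 or 4 nt, so this peak follows from the choice and supports nothing. It shows only the spread around it. Of the remaining genes without an H/ACA annotation, snoR02 and sno16 had neither CTGA in the window nor ACA at these distances. A motif match describes these letters only, and a missing match says nothing of the proteins bound.

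The 5 snoRNAs of the snoZ cluster differed in abundance although they are annotated on 1 primary transcript of 1901 nt (I, 526641 to 528541). From upstream to downstream, snoZ8 had 185 reads (159 to 214), snoZ7 had 702, snoZ5 had 144 (121 to 170), snoZ4 had 87 (69.7 to 107) and snoZ3 had 126 (105 to 150). The RNA in the second position was thus 8.07 times as frequent as that in the fourth, and reads did not fall steadily along the transcript. Their lengths were alike, 74 to 99 nt. As distinct alignments the values were 16, 55, 27, 9 and 15, with the same highest and lowest member. The ends of snoZ8, snoZ4 and snoZ3 were sharp at both sides, with 94.1%, 88.5% and 92.1% of reads at the 3' end and 96.2%, 98.9% and 97.6% at the 5' end. Those of snoZ7 and snoZ5 were looser, with 73.7% and 71.5% at the 3' end.

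Only 1 read covered more than 1 RNA of the snoZ cluster. It ran from 527189 to 527468, joining snoZ5 and snoZ4 over the 111 nt between them, and it belonged to the later movies. It began 2 nt before the commonest 5' end of snoZ5 and ended on the commonest 3' base of snoZ4, so the outer ends of this molecule of 280 nt lay within 2 nt of those of the single snoRNAs. The other spacers, of 133, 154 and 149 nt, were crossed by 0 reads (up to 3 each). The longest read of the file had 356 nt, less than the span of any 3 neighbouring snoRNAs of this cluster, and whether longer molecules were lost was not tested.

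**Figure D5:**
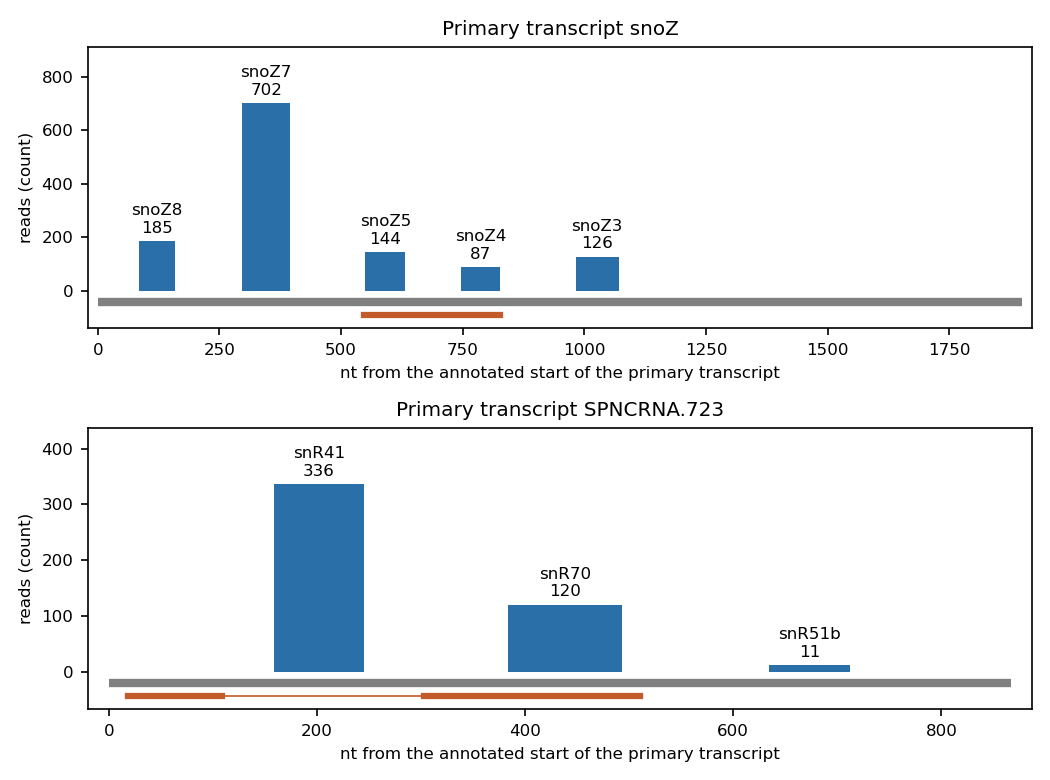
Reads (bars, count) of the snoRNAs of the primary transcripts snoZ (top) and SPNCRNA.723 (bottom), each drawn between its commonest ends at its distance in nt from the annotated transcript start. Grey lines are the annotated transcripts; orange lines are the single reads that reach beyond 1 snoRNA, the lower one with its gap drawn thin. snoZ7 (702) and snR41 (336) are the highest in their clusters.

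In SPNCRNA.723 (868 nt, I, 1200009 to 1200876) reads fell from the first to the last snoRNA. snR41 had 336 reads (301 to 374), snR70 had 120 (99.5 to 144) and snR51b had 11 (5.49 to 19.7), and the intervals did not overlap. As distinct alignments the values were 17, 22 and 7, so the order of snR41 and snR70 turned. Of the 467 reads in this transcript, 1 reached more than 20 nt beyond a snoRNA. That read began at 1200027, ended 18 nt past the annotated end of snR70, at 1200519, and had a gap from 1200119 to 1200311. The gap of 193 nt begins with gtaagc and ends with tag, the letters of an intron, is not an annotated intron, and contains all of snR41. The molecule thus kept snR70 and lacked snR41.

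The other primary transcripts held few reads outside their snoRNAs. Over the 7 transcripts, 6 reads reached more than 20 nt beyond the snoRNA inside, 1 in SPNCRNA.723, 2 in SPNCRNA.1394, 2 in SPNCRNA.1483 and 1 in SPNCRNA.1650. In SPNCRNA.1394 (II, 883967 to 884395), which holds snR3, both reads began at the annotated start of snR3 and ran 95 and 117 nt past its annotated end. In SPNCRNA.1483 (II, 2044062 to 2045213), which holds the C/D RNA snoZ30, 1 read began 60 nt before snoZ30 and ended 1 nt past its annotated end. The other lay wholly upstream, from 2044102 to 2044162. In SPNCRNA.1650, 1 read ran 56 nt past the end of snoR68. SPNCRNA.814 and SPNCRNA.901 had 0 such reads, although their snoRNAs, snR98 and snR91, had 239 and 39. The annotated start of snR91 (3316609, minus strand) lies slightly upstream of that of SPNCRNA.901 (3316601), so snR91 lies mostly but not wholly inside it. SPNCRNA.7474 had no read of any kind. If instead the longest annotated gene took each read, SPNCRNA.723 would hold 467, SPNCRNA.814 would hold 239 and snoZ, a gene of biotype lncRNA, would hold 1244 reads. Nearly all reads counted for these longer transcripts in that way are reads of the snoRNAs inside them.

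Reads longer than the commonest RNA were rare over the 29 genes. An overhang of 10 nt or more at the 3' side was seen in 53 reads (0.803%, 0.615 to 1.05), 21 of them in snR88. At the 5' side 128 reads (1.94%) began at least 10 nt early. Of these, 46 were of snR95, whose commonest 5' end rests on 4 reads, and without this gene it was 82 of 6542 (1.25%, 1.01 to 1.55). Reads whose 3' end lay at least 10 nt inside the RNA numbered 58 (0.879%, 0.681 to 1.14), and 42 of these had the usual 5' end to within 1 nt.

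The longer forms differed between genes. In snR88, 27 of 398 reads were extended on both sides. Of these, 25 began exactly 12 nt early, 14 in the earlier and 11 in the later movies, and the 27 ended 5 to 14 nt late. Their 5' end was thus shared, while their 3' ends were spread over that range. In sno16, 11 of 173 reads began early, 7 of them 61 nt upstream, and 10 of the 11 had the usual 3' end to within 1 nt. In snoR02, 8 of 276 began early, 4 of them 96 nt upstream, and 7 ended at the usual 3' base. In snR98, 10 of 239 reads began early, up to 40 nt, and 9 had the usual 3' end. In snoR69b, 10 of 219 began early, up to 71 nt upstream, and 5 ended 5 to 14 nt late. In snoR69, 3 reads began 94 nt early, and 0 of them had the usual 3' end. In snoR69b it was 3 of the 10, and in snR88 0 of the 27. Over all genes but snR95, 33 of the 82 early-starting reads had the usual 3' end to within 1 nt.

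The members were set beside the removed snoRNA genes, with no test between them. The pooled 5' share was 78.2% in the members, 11.7% (10.6 to 12.8) in snu3, snu32 and snR30, and 81.2% (78.5 to 83.6) in the 6 genes from snR191 to snR48. The 3' shares were 85.2%, 90.4% and 85.9%. Reads ending at least 10 nt inside the RNA were 0.879% of the members' reads, 3.29% (2.73 to 3.97) of those of the U3 and U17 genes and 2.47% (1.63 to 3.71) of those of the 6 genes. Among the members, 7 lie in annotated introns as well and held 220 reads together.

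Genes encoding proteins that act on these RNAs were at the edge of detection in this nascent RNA library. Of 10 genes of snoRNP proteins and assembly factors, 7 had reads, 12 in all: nop56 had 4 and snu13, which binds the C/D fold, had 3. There was 1 each of nop58, nhp2, gar1, nop10 and cbf5, the pseudouridine synthase. The genes fib1, encoding fibrillarin, naf1 and shq1 had 0. Of 14 genes of RNA end processing and decay, 5 had 1 read each (the 5'-3' exonuclease gene dhp1, the helicase genes mtr4 and sen1, pab2 and seb1). The RNase III gene pac1 and the exosome genes rrp6 and dis3 had 0. Levels of these genes cannot be ranked at this depth. The share of all protein-coding genes with a read is not given here, so these counts cannot be set against it.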

How the data were processed

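The S. pombe file deposited by the authors holds 1 line per genome alignment of a consensus read, with start, end, strand and blocks. It also has a score deposited by the authors, which is 40 throughout and carried no information. Cutadapt 1.8 and the build sacCer3 are named in the submitters' processing notes. That build cannot hold these alignments, which lie on fission yeast chromosomes. The aligner is not given in the sources used here. Against the RefSeq assembly ASM294v3, all read ends on chromosomes I to III were inside the assembly, and 330 of 358 distinct gaps equalled an annotated intron, 329 of them with GT-AG ends and 0 on the opposite strand.

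From the 16126 alignments (16122 read names) reads were assigned by strand and overlap in Python 3.11.15, with intervals from scipy 1.17.1. Counts are deposited alignments counted per gene by script. The random adaptor bases were not used, so PCR copies were not removed. Assignment and end counting were each checked on simulated reads built around the annotated ends. For end counting the gene of each read was given, so these steps were not checked together. The commonest end is the base with most reads. Coordinates are 1-based. The 4 movies, 2 on each of 2 days by the read names, are runs of 1 sample. Finished RNA was not told apart from nascent RNA. Genes with at least 50 reads could be named, with full values for the 10 with most reads, for hosts of other snoRNAs, for snoZ5 and snoZ4 and for genes 10 nt or more off the annotated 3' end. Genes named for a departing 5' end, an extra end or an extended form were chosen after their values were seen. Members and lists were chosen with earlier results of these data known. The ACA distance of 4 nt was added after seeing the data.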

Additional observations from a re-analysis of the deposited data

How the results depend on the processing

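Requiring 50% of the read to overlap gave a members' share of 42.2%, 28 genes with at least 50 reads in place of 29, and the same count of 23 within 2 nt of the annotated 3' end. Identical alignments counted once lowered the members' share to 20.2%, the genes with 50 reads to 8 and those within 2 nt of the annotated 3' end to 7; the shares at the commonest ends became 66.6% (3' end), 22.2% (5' end) and 7.86% (both ends, 67.2% as reported), and reads past the 3' end 3.34%. Only RNAs with many different ends reach 50 distinct alignments, so these shares rest on 8 genes. With ties to the longest gene the members' share was 33.6%, the 3' share 84.2%, the 5' share 74.97%, both ends 65.3%, reads past the 3' end 3.36% and early starts 2.37%, with 22 genes of at least 50 reads and 16 within 2 nt of the annotated 3' end. That setting pools snR41, snR70 and snR51b as SPNCRNA.723 (467 reads). Reads of snR70 (120) and snR51b (11) then count as past the end of snR41, so 3.36% is not a share of extended snoRNAs. A tolerance of 0 nt gave 58.9%, 56.4% and 33.8% (3', 5', both), and 3 nt gave 96.4%, 83.2% and 80.8%. The earlier and later movies alone held 22 and 25 genes with at least 50 reads, 18 and 20 of them within 2 nt of the annotated 3' end, and gave 79.5% and 79.95% at the 5' end, 68.3% and 68.4% for both ends, and 1.56% and 1.14% for early starts, partly because snR95 has under 50 reads in each. With at least 100 reads the 5' share was 79.3%. Annotated 3' ends were matched at 0 nt in 5 genes. Reads past the 3' end were 1.06% at 5 nt and 0.440% at 20 nt, and early starts were 1.47% at 20 nt. Host reads beyond a snoRNA were 2 in the later movies, and reads joining snoZ5 and snoZ4 were 0 in the earlier ones. Box letters were found in 19 genes, in 17 to 24 over the alternatives. With 1 library and under 50 reads in 17 genes, end shares of those genes are not given. No paired analysis was possible because only 1 library was analysed and no groups were compared.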
